A study of Mus musculus with 8 samples.

Results

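The natriuretic peptide system was followed through 8 genes in the RNA of mouse left ventricles (LVs) after angiotensin II (angII) infusion. The genes are the peptide precursors *Nppa*, *Nppb* and *Nppc*, the receptors *Npr1*, *Npr2* and *Npr3*, and the convertases *Corin* and *Furin*. They were taken by name from a table of 46040 genes, all 8 were found there, and 7 passed the filter on low counts. All mice were C57BL/6 males of 5 to 7 months with LV hypertrophy induced by angII (0.1 mg/kg/h from a subcutaneous osmotic minipump), and RNA was taken on day 14 from the mice that survived. No untreated group is among the libraries, so the response to angII itself was not tested. The comparison asks whether the loss of the VEGFR-1 tyrosine kinase domain alters these RNAs under pressure overload. VEGFR-1 TK-/- mice lack this domain in all tissues, not in the heart alone, and the controls were their littermates.

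The labels of the libraries contradict each other. By library name and genotype tag, 4 libraries are wildtype (called WT2 here) and 4 are VEGFR1_TK -/- (called dVEGFR1TK2 here), while the sample titles give each library the other genotype. Libraries were grouped by library name. Each fold change sets dVEGFR1TK2 against WT2, and its sign turns around if the titles are right.

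Atrial natriuretic peptide (ANP, from *Nppa*) and B-type natriuretic peptide (BNP, from *Nppb*) are hormones of cardiomyocytes that are released under stretch, and ventricular *Nppa* and *Nppb* RNA are classical markers of hypertrophy. Corin, a membrane protease of cardiomyocytes, cleaves the precursor of ANP, and furin cleaves the precursors of BNP and of C-type natriuretic peptide (CNP, from *Nppc*). ANP and BNP act through NPR-A (from *Npr1*) and CNP through NPR-B (from *Npr2*), both of which are guanylyl cyclases that make cGMP, and NPR-C (from *Npr3*) removes the peptides from the circulation.

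Counts per library lay between 11449137 and 16239670. Of 13542 genes tested, 1 was called between the groups at an FDR (Benjamini-Hochberg adjusted p) under 0.1 and a change of at least 1.5 times by edgeR's quasi-likelihood test. This gene was *Flt1*, the gene of VEGFR-1, at 69.3 ± 11.3 normalized CPM in WT2 and 158 ± 13.2 in dVEGFR1TK2 (SD, n = 4). Normalized CPM are library-scaled counts (CPM with TMM factors). These counts take in all exons, not the removed domain alone, and so do not decide between the labels. The summed CPM of 9 markers of ventricular cardiomyocytes was 68162 to 89094 in WT2 and 80765 to 92348 in dVEGFR1TK2, much of it from *Myh6*, *Actc1* and *Tnnt2*, which atrial cardiomyocytes share. Of the markers that set the ventricle apart, *Myl2* had 105855 to 195117 counts per library and *Irx4* 447 to 682, and no marker on the list separates the left from the right ventricle. The library names read cardiomyo, while the labels give LV tissue as the source. In such bulk tissue, fewer cells of a type and less RNA per cell cannot be told apart.

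No natriuretic peptide gene was called between the groups. By the quasi-likelihood test, the likelihood ratio test and DESeq2, 0 of the 7 tested members passed the thresholds, where 0.00738%, 0.391% and 0.236% of all tested genes did. In any of these tests, 0 of 7 had an unadjusted p under 0.05. By the quasi-likelihood test, 8.96% of all tested genes had such a p. Beside these shares, the counts of 0 do not set the members apart from other genes. The groups overlapped in all 7 members, while they did not overlap in 4.98% of all tested genes. The fold change was below 1 in 6 members and above 1 in *Corin*, where 50.3% of all tested genes had a fold change below 1. Of the 6, *Npr2* and *Furin* had log2 fold changes of −0.052 (SE 0.095) and −0.015 (SE 0.090). Their signs turned when single libraries were left out. The median log2 fold change of the members was −0.20, against −0.0012 over all genes tested.

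**Figure D1:**
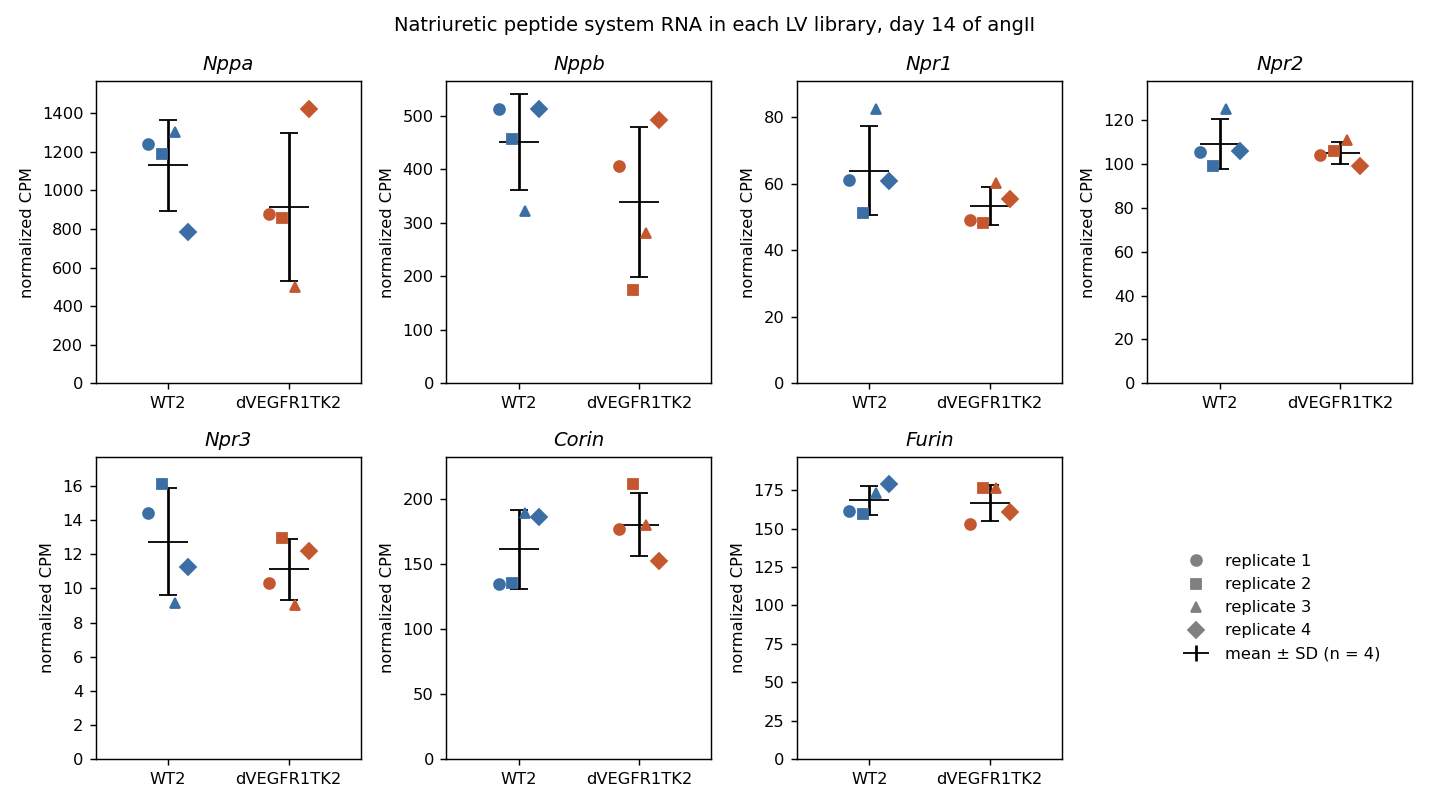
Normalized CPM of the 7 tested members in each of the 8 libraries (vertical axes from 0, 1 panel per gene), with WT2 in blue, dVEGFR1TK2 in orange, 1 symbol per replicate number, and the mean ± SD of 4 libraries in black. The groups overlap in every panel, and *Nppa* and *Nppb* spread most within the dVEGFR1TK2 group.

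*Nppa* (ENSMUSG00000041616, GRCm38, chromosome 4, 148000722 to 148002079, plus strand) was the most abundant member. Its normalized CPM was 1243, 1189, 1306 and 784 in WT2 replicates 1 to 4, and 877, 855, 498 and 1425 in dVEGFR1TK2 replicates 1 to 4. The highest and the lowest of all 8 libraries were thus both in the dVEGFR1TK2 group, in replicates 4 and 3. The means were 1130 ± 236 in WT2 and 914 ± 383 in dVEGFR1TK2 (SD, n = 4). The log2 fold change was −0.31 (SE 0.27, FDR = 0.762), which as a fold is 0.809 with a 95% interval from 0.539 to 1.21. Without dVEGFR1TK2 replicate 3 the log2 fold change was −0.11, and without dVEGFR1TK2 replicate 4 it was −0.60. With the groups taken from the titles, the fold is 1.24 with an interval from 0.825 to 1.85. The difference did not exceed the spread between replicates (2-sided exact permutation test, p = 0.371, n = 4 per group).

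The level of *Nppa* rested on 6308 to 19414 reads per library, or 0.0467% to 0.147% of all counts, so that counting error was 0.718% to 1.26%. Of the exon bases of *Nppa*, 61.5% are shared with the antisense gene *Gm13054*, which had 0 to 16 counts. Whether reads were counted by strand is not given in the sources used here.

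*Nppb* (ENSMUSG00000029019) lies upstream of *Nppa* on the same strand of chromosome 4, from 147985788 to 147987205, with 13.5 kb between both genes. The WT2 replicates 1 to 4 had 514, 457, 322 and 512 normalized CPM, and the dVEGFR1TK2 replicates 1 to 4 had 407, 174, 280 and 493. The lowest libraries were dVEGFR1TK2 replicates 2 and 3, and dVEGFR1TK2 replicates 1 and 4 were within the range of WT2. Means of 452 ± 90.1 and 339 ± 140 (SD, n = 4) gave a log2 fold change of −0.42 (SE 0.27, FDR = 0.677). This is a fold of 0.750 with a 95% interval from 0.499 to 1.13, or 1.33 with an interval from 0.887 to 2.0 by the titles. Without dVEGFR1TK2 replicate 2 the log2 fold change was −0.20, and without dVEGFR1TK2 replicate 4 it was −0.65. The exact permutation test (2-sided) gave p = 0.200, with n = 4 per group.

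The promoters of both peptide genes are shown because they hold letters of cardiac regulators, among them *Gata4* and *Nkx2-5*, whose RNA is given further on. Binding to these letters was not measured. The sequence of *Nppa* is that of 250 bases before the RefSeq start (GRCm38.p6, chr4:148000472-148000721, plus strand), and that of *Nppb* is a stretch of 30 bases (chr4:147985795-147985824, plus strand). Capitals mark the searched letters of GATA factors, NKX2-5, MCAT and TATA.
Nppa: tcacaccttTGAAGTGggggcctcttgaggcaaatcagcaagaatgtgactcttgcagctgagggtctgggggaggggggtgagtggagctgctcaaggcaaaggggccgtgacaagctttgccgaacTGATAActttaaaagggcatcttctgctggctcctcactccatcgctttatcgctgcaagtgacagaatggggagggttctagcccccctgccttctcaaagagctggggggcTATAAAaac
Nppb: GGAATGcagcTGATAAatcagAGATAAccc

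Positions are counted back from the RefSeq start, with −1 as the last base before it. In *Nppa*, the NKX2-5 letters (TNAAGTG) lie from −241 to −235, a GATA match (AGATAA or AGATAG or TGATAA or TGATAG) from −122 to −117, and the TATA letters (TATAAA) from −9 to −4. In *Nppb*, an MCAT element (CATTCC, here on the minus strand), the element of TEAD factors, lies from −105 to −100, and GATA matches lie from −95 to −90 and from −84 to −79. The TATA letters of *Nppb* lie from −31 to −26, and GENCODE starts this gene 112 bases upstream of RefSeq. By GENCODE, the printed stretch of *Nppb* and all these matches thus lie within the gene, and only by RefSeq before its start. On both strands, GATA letters were found in 26.6% of 32817 RefSeq promoter windows of 250 bases, NKX2-5 letters in 10.1%, MCAT in 12.6% and TATA in 12.4%. Letters of AP-1 (TGANTCA) and the CArG box of SRF, found in 6.75% and 1.47% of windows, were in none of the windows of the 8 members. These motifs did not overlap each other in *Nppa* or *Nppb*.

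*Nppa* and *Nppb* did not rank the animals alike. WT2 replicate 3 had the second highest *Nppa* of all libraries but less *Nppb* than the other WT2 libraries, WT2 replicate 4 had the second lowest *Nppa* and the second highest *Nppb*, and dVEGFR1TK2 replicate 2 had the lowest *Nppb* with *Nppa* near that of dVEGFR1TK2 replicate 1. Over the 8 libraries, Pearson's r of log2 normalized CPM was 0.42 (exact permutation p = 0.306, adjusted p = 0.465 over 21 pairs of members) and Spearman's rho was 0.36 (exact permutation p = 0.389, adjusted p = 0.626). Without the 2 libraries farthest from the median of *Nppa*, r was 0.21. The log2 ratio of *Nppa* to *Nppb* was 1.321 ± 0.58 in WT2 and 1.44 ± 0.64 in dVEGFR1TK2 (SD, n = 4). It ranged from 0.61 in WT2 replicate 4 to 2.30 in dVEGFR1TK2 replicate 2, and the groups did not differ beyond the replicates (2-sided exact permutation test, p = 0.771).

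**Figure D2:**
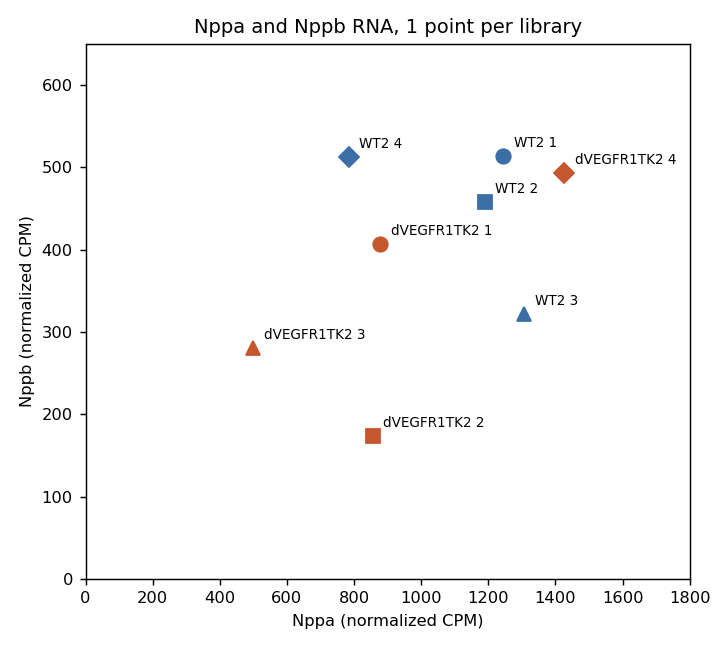
Normalized CPM of *Nppa* (horizontal) against *Nppb* (vertical), 1 point per library, with WT2 in blue and dVEGFR1TK2 in orange. dVEGFR1TK2 replicate 4 and WT2 replicate 1 are high in both genes, dVEGFR1TK2 replicate 3 is low in both, and WT2 replicates 3 and 4 are high in one gene only.

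Atrial tissue carries far more *Nppa* than the ventricle, so atrial markers were read beside it. *Sln* had 0 to 3 counts per library, *Bmp10* 0 to 2, *Mybphl* 0 to 3 and *Myl7* 3 to 17. *Myl4*, the atrial essential light chain, had 40 to 61 counts and *Dkk3* 34 to 174, so these 2 atrial markers were not near 0. The summed CPM of 8 atrial markers was 65.2 to 84.2 in WT2 and 88.1 to 104 in dVEGFR1TK2, most of it from *Kcnj3* and *Stard10*. *Kcnj3*, a channel gene of that list, had 39.3 ± 7.72 and 57.4 ± 9.37 normalized CPM (SD, n = 4), at an FDR = 0.442. *Kcnj3* was named after its values were seen. The groups did not overlap in 1 of the 5 tested atrial markers, *Kcnj3*, and in 4.98% of all tested genes. Of these 5, 4 had a log2 fold change above 0, among them *Myl7* at 0.016, and *Dkk3* was at −0.28. Whether the groups differ in atrial tissue was not tested.

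*Nppc* (ENSMUSG00000026241, chromosome 1, 86666291 to 86670571) was barely detected. It had 2 counts in WT2 replicate 1, 1 count in each of dVEGFR1TK2 replicates 1 and 2, and 0 in the other 5 libraries. The limit that a count of 0 allows, taken as 3 counts, is 0.185 to 0.262 CPM per library, and every library was below it. *Nppc* did not pass the filter and was not tested.

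*Nppa* and *Nppb* varied more between animals of 1 group than most genes with a mean of at least 100 normalized CPM. The SD of log2 normalized CPM within groups was 0.50 for *Nppa* and 0.52 for *Nppb*, against a median of 0.17 over the 1710 genes with a mean of at least 100 normalized CPM. Only 20 of these 1710 genes (1.17%) had a larger SD than *Nppa*, and 14 (0.819%) a larger SD than *Nppb*. The coefficient of variation of *Nppa* was 20.9% in WT2 and 41.8% in dVEGFR1TK2, and that of *Nppb* was 19.96% and 41.5%. These SDs rest on 4 libraries each, and their difference was not tested. *Npr2* and *Furin* had SDs of 0.11 and 0.092, which 77.0% and 86.7% of the same 1710 genes exceeded.

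**Figure D3:**
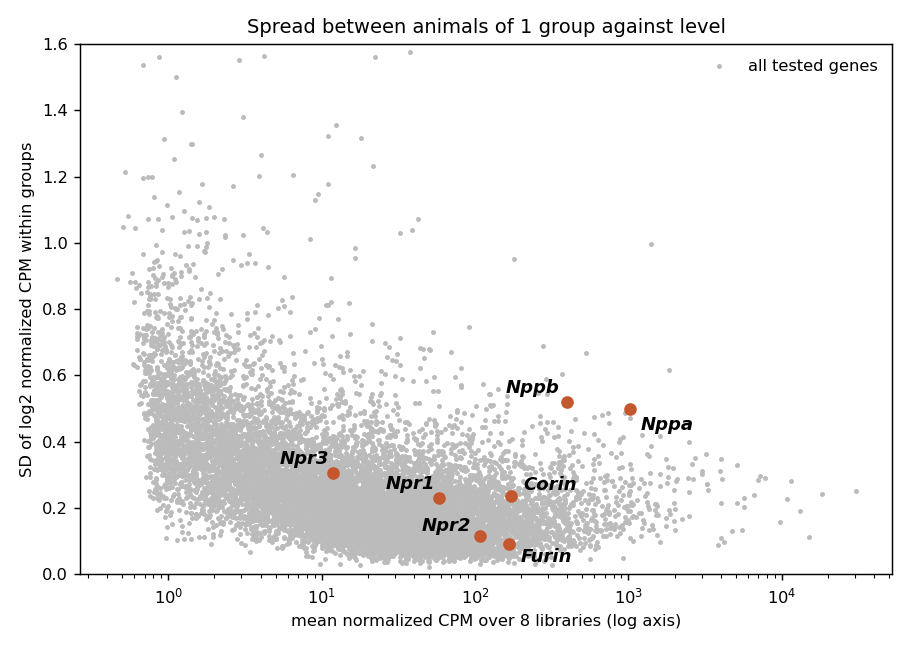
SD of log2 normalized CPM within groups (vertical, pooled over both groups of 4) against the mean normalized CPM over 8 libraries (horizontal, log axis) for the tested genes in grey and the 7 tested members in orange. *Nppa* and *Nppb* lie at 0.50 and 0.52, above most genes at 100 normalized CPM or more. *Npr2* and *Furin* lie at 0.11 and 0.092, while 11 genes with an SD over 1.6 are outside the axis.

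Among the receptors, *Npr1* (ENSMUSG00000027931, chromosome 3, 90450591 to 90465866) came closest to a difference. It had 61.2, 51.0, 82.6 and 60.7 normalized CPM in WT2 replicates 1 to 4, and 49.2, 48.2, 60.2 and 55.4 in dVEGFR1TK2 replicates 1 to 4. WT2 replicate 3 was the highest, and WT2 replicate 2 was below dVEGFR1TK2 replicates 3 and 4. Means of 63.9 ± 13.3 and 53.2 ± 5.63 (SD, n = 4) gave a log2 fold change of −0.26 (SE 0.14, FDR = 0.612), a fold of 0.833 with a 95% interval from 0.674 to 1.03. The unadjusted p of the quasi-likelihood test was 0.0852, and that of the 2-sided exact permutation test was 0.143. Without WT2 replicate 3, the log2 fold change was −0.12.

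NPR-A is made by endothelial cells among others, and endothelial markers were read beside it. The summed CPM of *Pecam1*, *Cdh5*, *Kdr*, *Tie1* and *Egfl7* was 1214 to 1705 in WT2 and 1088 to 1278 in dVEGFR1TK2, and the groups overlapped in all 5 genes. None was called, *Pecam1*, *Cdh5* and *Tie1* were lower at an unadjusted p under 0.05 (8.96% of all tested genes had such a p in either direction), and *Kdr* had a log2 fold change of 0.012. Their part in the values of *Npr1* was not tested.

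*Npr2* (ENSMUSG00000028469, chromosome 4, 43631935 to 43651244) was the steadiest receptor. WT2 replicates 1 to 4 had 106, 98.9, 125 and 106 normalized CPM, and dVEGFR1TK2 replicates 1 to 4 had 104, 106, 111 and 99.1. Apart from WT2 replicate 3, all libraries lay between 98.9 and 111. The log2 fold change was −0.052 (SE 0.095, FDR = 0.899), and the 95% interval of the fold ran from 0.835 to 1.11. Of the receptors, *Npr2* thus has the narrowest interval.

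*Npr3* (ENSMUSG00000022206, chromosome 15, 11839896 to 11907287) was covered by 114 to 222 reads per library, which gives a counting error of 6.71% to 9.37%. Its normalized CPM was 14.4, 16.1, 9.15 and 11.3 in WT2 replicates 1 to 4, and 10.3, 13.0, 9.01 and 12.2 in dVEGFR1TK2 replicates 1 to 4. The WT2 libraries held both the highest value and the second lowest. The log2 fold change was −0.20 (SE 0.19, FDR = 0.782), with a fold of 0.872 and a 95% interval from 0.658 to 1.16. The exact permutation test (2-sided) gave p = 0.429 with n = 4 per group.

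The endocardium is a known site of *Npr3* in the heart. Of 5 endocardial markers fixed without *Npr3*, *Plvap*, *Cytl1* and *Cgnl1* passed the filter, *Hapln1* was at 0 in all libraries and *Nrg1* had 1 to 6 counts. Their summed CPM was 47.8 to 58.9 in WT2 and 33.8 to 44.5 in dVEGFR1TK2, with no overlap. Most of it came from *Cgnl1*, at 38.5 ± 3.98 and 29.6 ± 3.85 normalized CPM (SD, n = 4, FDR = 0.453). Of the 3 tested markers, only *Cgnl1* was without overlap of the groups, as were 4.98% of all tested genes. The median log2 fold change was −0.42, with no gene called. The part of the endocardium in the values of *Npr3* was not tested. Adipocytes also express *Npr3*, and the summed CPM of *Adipoq*, *Plin1*, *Cidec* and *Lep* was at most 0.243.

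The log2 ratio of the clearance receptor *Npr3* to the cyclase receptor *Npr1* was −2.32 ± 0.63 in WT2 and −2.25 ± 0.35 in dVEGFR1TK2 (SD, n = 4; 2-sided exact permutation test, p = 0.857). It was lowest in WT2 replicate 3 at −3.15, the library with the highest *Npr1*, and highest in WT2 replicate 2 at −1.65.

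*Corin* (ENSMUSG00000005220, chromosome 5, 72300025 to 72504473) was the only member with a fold change above 1. WT2 replicates 1 to 4 had 135, 136, 189 and 186 normalized CPM, and dVEGFR1TK2 replicates 1 to 4 had 178, 212, 181 and 153. The WT2 libraries fell into a lower and a higher pair, and 3 of the 4 dVEGFR1TK2 libraries lay between these pairs, with replicate 2 above them. Means of 162 ± 30.4 and 181 ± 24.1 (SD, n = 4) gave a log2 fold change of 0.16 (SE 0.14, FDR = 0.766), a fold of 1.12 with a 95% interval from 0.901 to 1.39 (2-sided exact permutation test, p = 0.314).

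*Furin* (ENSMUSG00000030530, chromosome 7, 80388585 to 80405436) varied least of all members, from 153 to 179 normalized CPM over the 8 libraries. The WT2 replicates 1 to 4 had 162, 159, 174 and 179, and the dVEGFR1TK2 replicates 1 to 4 had 153, 177, 176 and 161. Its log2 fold change was −0.015 (SE 0.090, FDR = 0.974), and the 95% interval of the fold ran from 0.863 to 1.13.

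A list of 10 other genes of peptide processing and breakdown was read beside the convertases. It holds the proprotein convertases *Pcsk5*, *Pcsk6* and *Pcsk7*, the proteases *Mme* (neprilysin), *Ide*, *Dpp4* and *Fap*, the glycosyltransferases *Galnt1* and *Galnt2*, and *Ostn*, whose product binds NPR-C. Of the 8 genes tested, 0 were called, 1 was lower and 0 were higher at an unadjusted p under 0.05, where 8.96% of all tested genes had such a p, and the median log2 fold change was −0.22. *Fap*, a membrane protease of activated fibroblasts, had 6.74 ± 0.498 and 4.59 ± 0.972 normalized CPM (SD, n = 4). Its log2 fold change was −0.55 (SE 0.17, FDR = 0.464). The groups did not overlap in 1 of the 8 genes, *Fap*, and in 4.98% of all tested genes. *Pcsk6*, whose protease activates corin, had a log2 fold change of −0.33 (SE 0.19, FDR = 0.627), and *Pcsk7* of −0.22 (SE 0.12, FDR = 0.615). *Mme* had a log2 fold change of 0.25 (SE 0.17, FDR = 0.704) at 5.35 ± 1.02 and 6.34 ± 0.546 normalized CPM (SD, n = 4). *Galnt2* and *Ostn* were below the filter, with at most 12 and 4 counts.

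Set per kb of exon, the levels of the members fell into 3 tiers. *Nppa* stood at 1182 ± 365 and *Nppb* at 506 ± 160 normalized CPM per kb (SD over the 8 libraries). *Nppa* was above *Nppb* in 8 of 8 libraries, by 1.38 to 4.44 times, although the ranges of both genes overlapped. *Corin* (31.7 ± 5.07), *Npr2* (22.9 ± 1.80), *Furin* (18.3 ± 1.08) and *Npr1* (12.2 ± 2.31) followed. Within each library this order held 8 of 8 times, but the ranges of *Corin* and *Npr2*, and those of *Furin* and *Npr1*, overlapped, while *Npr2* and *Furin* were separated. *Npr3* was lowest at 1.27 ± 0.268 normalized CPM per kb, 9.63 times below *Npr1* on average. The exon bases are those of all annotated transcripts of a gene, 9389 for *Npr3* and 9178 for *Furin*. The level per kb of these genes is therefore lower than it would be over a single shorter transcript. The order within the middle tier depends on these lengths, which are the same in every library.

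**Figure D4:**
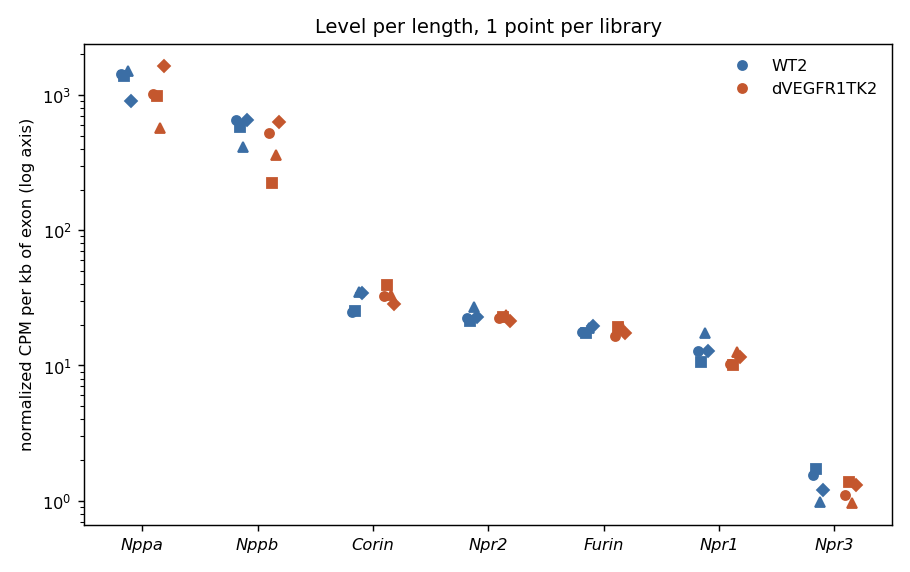
Normalized CPM per kb of exon (vertical, log axis) of the 7 tested members in order of their mean, 1 point per library, with WT2 in blue, dVEGFR1TK2 in orange and 1 symbol shape per replicate number. The peptide genes are on top at means of 1182 and 506, *Corin*, *Npr2*, *Furin* and *Npr1* follow between 31.7 and 12.2, and *Npr3* is at 1.27.

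Downstream of the receptors, cGMP activates the kinases of *Prkg1* and *Prkg2* and is broken down by phosphodiesterases. Of a list of 20 genes of cGMP production, action and breakdown, 18 were tested and 0 were called. At an unadjusted p under 0.05, 4 were lower and 1 was higher in dVEGFR1TK2, where 8.96% of all tested genes had such a p. The median log2 fold change was −0.17, and it was −0.11 without WT2 replicate 2 and −0.099 without dVEGFR1TK2 replicate 2. *Pde9a*, a cGMP phosphodiesterase, had 5.10 ± 1.36 and 3.12 ± 0.777 normalized CPM (SD, n = 4). The groups overlapped, and its log2 fold change was −0.71 (SE 0.25, FDR = 0.484). *Rgs4*, a regulator of G protein signaling, and *Mrvi1*, a substrate of the cGMP kinase, both had a log2 fold change of −0.34 (SE 0.14, FDR = 0.521). The groups did not overlap in 2 of the 18 genes, *Mrvi1* and *Pln*, and in 4.98% of all tested genes. *Pln*, phospholamban, the inhibitor of the calcium pump of the sarcoplasmic reticulum, had 4227 ± 464 normalized CPM in WT2 and 5266 ± 322 in dVEGFR1TK2 (SD, n = 4), and its log2 fold change was 0.32 (SE 0.14, FDR = 0.541). It was named after its values were seen.

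The regulators of the peptide genes showed no difference that passed the test. Of 17 transcription factors and cofactors, all tested, 0 were called and 0 had an unadjusted p under 0.05. Of all tested genes, 0.00738% were called and 8.96% had such a p, so a count of 0 called is common to most lists. The median log2 fold change was 0.057, or 0.12 without WT2 replicate 4, 0.036 without dVEGFR1TK2 replicate 3 and 0.017 without dVEGFR1TK2 replicate 2. The log2 fold changes lay between −0.20 and 0.20. *Gata4*, which binds GATA letters such as those printed for both peptide genes, had 140 ± 17.6 and 155 ± 10.5 normalized CPM (SD, n = 4), and its log2 fold change was 0.15 (SE 0.11, FDR = 0.696). *Nkx2-5*, a cardiac homeobox factor, was at 54.7 ± 6.77 and 60.4 ± 2.96 normalized CPM, and *Mef2d*, a MADS box factor, at 217 ± 16.6 and 236 ± 14.6 (SD, n = 4), with FDR = 0.707 and FDR = 0.741. *Rest*, a repressor of the peptide genes, was at 11.5 ± 2.41 and 12.0 ± 1.56 normalized CPM (SD, n = 4).

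Genes that respond to load in cardiomyocytes, of which *Nppa* and *Nppb* are the classical examples, were read as a list of 10. The list was chosen with earlier results for *Acta1* and *Ankrd1* in these data known. Its counts beside the shares of all genes are therefore not a test of the list. The quasi-likelihood test called 0 of them, and 4 were lower at an unadjusted p under 0.05, where 8.96% of all tested genes had such a p. Of the 10, 7 had a log2 fold change below 0, as had 50.3% of all tested genes. The other 3 were *Hopx* at 0.18 (SE 0.22), *Myh7* at 0.13 (SE 0.48) and *Vcl* at 0.0095 (SE 0.097). The groups did not overlap in 4.98% of all tested genes and in 3 of the 10 genes, the skeletal actin *Acta1*, the LIM protein gene *Fhl1* and the ankyrin repeat gene *Ankrd1*, where the log2 fold changes were −1.51 (SE 0.22, FDR = 0.152), −0.54 (SE 0.13, FDR = 0.442) and −0.82 (SE 0.19, FDR = 0.442). The likelihood ratio test called 2 of the 10, *Acta1* and *Ankrd1*, as lower, where 0.303% of all tested genes were called as lower by it. With the groups taken from the titles, both genes are called as higher. The intervals of *Nppa* and *Nppb* include 0, and the 95% interval of *Acta1* ran from −1.99 to −1.02 on the log2 scale. Whether the peptide genes differ from these genes in their response was not tested.

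**Figure D5:**
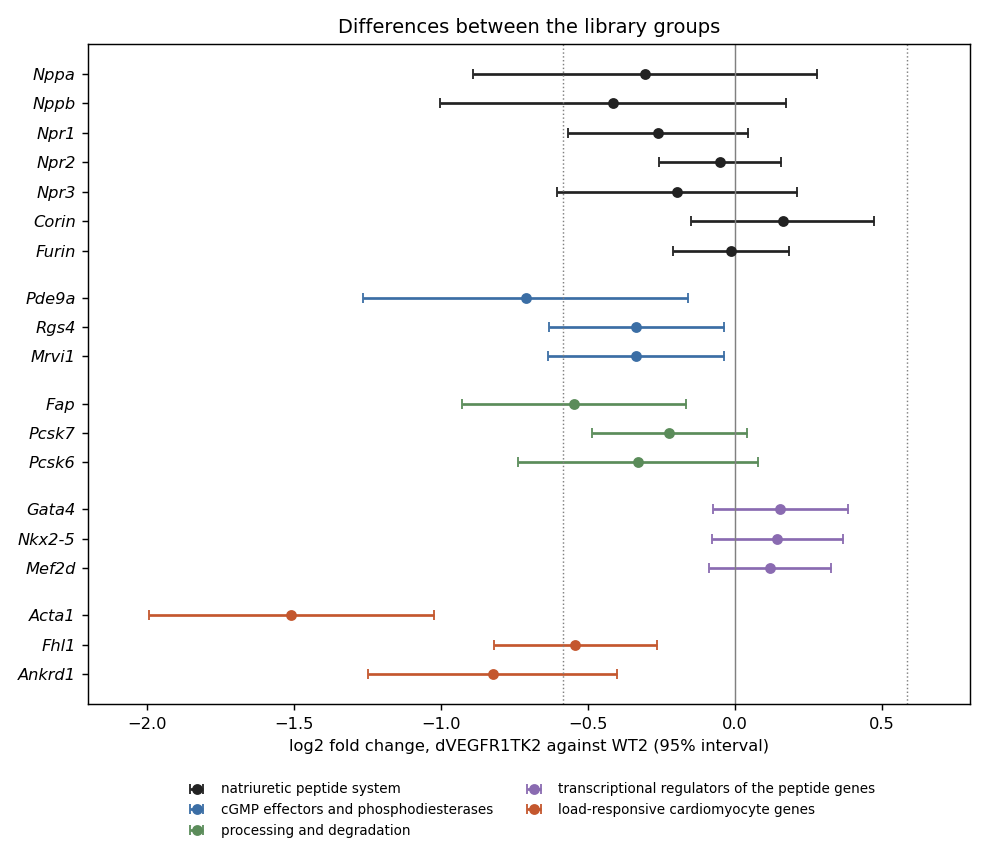
Log2 fold changes of dVEGFR1TK2 against WT2 with 95% intervals of the quasi-likelihood fit for the 7 tested members and for the 3 genes of lowest p in each of 4 gene lists, with dotted lines at a change of 1.5 times in either direction. The intervals of all 7 members include 0, and those of *Nppa* (−0.89 to 0.28) and *Nppb* (−1.0 to 0.17) are the widest among the members.

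Among the other protein coding genes within 100 kb of *Nppa* or *Nppb* on chromosome 4 were *Mfn2*, *Plod1*, *2510039O18Rik*, *Clcn6*, *Agtrap* and *Draxin*. *Clcn6*, which ends 2180 bases from *Nppa* on the opposite strand, had 16.5 ± 2.03 and 16.6 ± 1.95 normalized CPM (SD, n = 4), and its log2 fold change was 0.0092 (SE 0.13, FDR = 0.988). Among the tested neighbours, the groups did not overlap in *2510039O18Rik* alone, at 66.8 ± 5.49 and 59.9 ± 1.92 normalized CPM (SD, n = 4, FDR = 0.618). They did not overlap in 4.98% of all tested genes. *Plod1*, a collagen hydroxylase gene, had the lowest log2 fold change of these neighbours at −0.20 (SE 0.091, FDR = 0.559). None of these neighbours was called, and *Draxin* was below the filter with 0 to 3 counts.

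Over the 8 libraries, 0 of the 21 pairs of tested members were correlated after adjustment (lowest adjusted p = 0.294 for Pearson's r and 0.349 for Spearman's rho, exact permutation tests). Before adjustment, 3 pairs had a permutation p under 0.05 for r, namely *Npr1* with *Npr2*, *Nppb* with *Corin*, and *Npr2* with *Npr3*. For rho, 1 pair had such a p, *Npr2* with *Corin* (rho = 0.74, exact permutation p = 0.0458), whose r was 0.51 (p = 0.201). These values pool both groups. For deviations from the group means, r was 0.86, −0.66 and −0.84 in the 3 pairs, and −0.83 in *Npr1* with *Npr3*, without a test. *Npr1* and *Npr2* had r = 0.83 (exact permutation p = 0.0226) and rho = 0.43 (p = 0.299), and r without the 2 libraries farthest from the median of *Npr1* was 0.61. *Nppb* and *Corin* had r = −0.72 (exact permutation p = 0.0364) and rho = −0.69 (p = 0.0694), and r was −0.54 without the 2 farthest libraries. *Npr2* and *Npr3* had r = −0.70 (exact permutation p = 0.0420) and rho = −0.67 (p = 0.0831), and r was −0.44 without them. With library totals in place of TMM, r of this pair was −0.17.

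The genes whose pattern over the 8 libraries was most like that of *Nppa* were *Uchl1* (r = 0.96), *Pmepa1* (0.95), *Ostm1* (0.95), *Atp6v0a4* (0.95) and *Cnpy4* (0.94). Those most like *Nppb* were *Zfp57* (r = 0.96), *Prr7* (0.95), *Foxc2* (0.95), *Gm13889* (0.94) and *Lrrc4* (0.93), all with a mean under 10 normalized CPM. Those named for *Npr3* were *Mllt11* (r = 0.98), *Xlr3b* (0.98), *Lrp11* (0.97) and *Ddx18* (0.97). These values are Pearson's r of log2 normalized CPM and describe genes among the highest of 13542 over 8 points, which share depth and scaling. None of these 14 genes was called between the groups, and no gene was shared by the 3 lists.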

How the data were processed

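LV RNA of 8 mice was paired-end sequenced by the authors, who trimmed the reads with Trim Galore 0.4.4, aligned them to GRCm38 with STAR 2.5.4b and counted them on GENCODE M16 with featureCounts. The deposited table holds whole-number counts per gene, not normalized. The counting of strand and of reads with several alignments is not given in the sources used here, and the labels name depletion of ribosomal RNA where the methods name poly-A selection. Counts of genes with antisense partners or paralogs could be affected.

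The 13542 genes that reached a CPM of 1 in 2 or more libraries were tested. TMM-normalized counts were tested with the quasi-likelihood test of edgeR 4.0.16 in R 4.3.3 over all 8 libraries without covariates, and p-values were adjusted by Benjamini-Hochberg over all genes tested. As in the study, a call needed an FDR under 0.1 together with a change of at least 1.5 times in either direction. Intervals of fold changes are 95% intervals of this fit. Log2 normalized CPM used a prior count of 2. Single genes and ratios were compared by 2-sided exact permutation over the 70 ways to divide 8 libraries equally, which gives no p below 0.0286. The likelihood ratio test of edgeR, which the study used, DESeq2 1.42.0, other scalings and filters, each library left out and the replicate number as a block were alternatives. Each library was taken as 1 mouse, and the p-values of group comparisons set the difference between the groups against the spread between these libraries.

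Levels per kb used the exon bases of GENCODE M21 (GRCm38), and promoters came from RefSeq (GRCm38.p6), where all 8 members had a window. The members, the lists and the markers were chosen with earlier results of these data known, *Acta1* and *Ankrd1* included. Besides the members and *Flt1*, the genes named were those of each list with an FDR under 0.1 or the 3 lowest p, the 5 genes most like *Nppa*, *Nppb* and *Npr3*, the neighbours of the peptide genes, and markers, of which 2 genes are not reported here. *Mme*, *Pln*, *Rest*, *Kcnj3*, *Hopx*, *Myh7* and *Vcl* were added after their values were seen. Marker lists not described with a member gave these summed CPM in WT2 and dVEGFR1TK2: fibroblasts 1129 to 2219 and 601 to 1687, smooth muscle 353 to 687 and 222 to 481, leukocytes 284 to 466 and 193 to 337, red blood cells 305 to 855 and 369 to 591, and the conduction system 4.62 to 7.51 and 2.34 to 5.74.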

Additional observations from a re-analysis of the deposited data

How the results depend on the processing

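None of the members was called under any of 16 alternatives of test, scaling, filter, block and libraries. The log2 fold change of *Nppa* lay between −0.60 and −0.11, that of *Nppb* between −0.65 and −0.20, that of *Npr1* between −0.36 and −0.12, that of *Npr3* between −0.33 and −0.063 and that of *Corin* between 0.074 and 0.24. Leaving out each library gave −0.096 to 0.020 for *Npr2*, whose sign turned without WT2 replicate 3, and −0.046 to 0.024 for *Furin*, whose sign turned without WT2 replicate 4, dVEGFR1TK2 replicate 1 or dVEGFR1TK2 replicate 4. The difference in the log2 ratio of *Nppa* to *Nppb* ran from −0.16 to 0.35 and turned without WT2 replicate 4 or dVEGFR1TK2 replicate 2, and that of *Npr3* to *Npr1* ran from −0.21 to 0.29 and turned without WT2 replicate 3 or dVEGFR1TK2 replicate 2.

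The number of genes called was 1 by the quasi-likelihood test, 53 by the likelihood ratio test, 32 by DESeq2, 23 with no filter on low counts, and 1 to 3 with a library left out (more than 1 without WT2 replicate 1, 2 or 4). In the list of load-responsive genes it was 0, and 2 by the likelihood ratio test, 2 by DESeq2, 2 with no filter and 0 to 1 with a library left out (1 without WT2 replicate 2 or 4). The median log2 fold change of the processing and degradation list ran from −0.29 to −0.11 with a library left out, closest to 0 without WT2 replicate 3 or dVEGFR1TK2 replicate 2. With library totals in place of TMM, r turned to 0.22 for *Nppa* and *Npr2*, 0.033 for *Nppb* and *Furin*, −0.35 for *Npr1* and *Corin*, −0.23 for *Npr1* and *Furin*, −0.067 for *Npr2* and *Furin*, and 0.47 for *Npr3* and *Furin*. The cause of these changes was not tested.

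Same-numbered libraries were not paired in the main test. Their deviations from the group means correlated at −0.029, 0.029, 0.34 and −0.055 for replicates 1 to 4. The 0.34 of replicate 3 was the highest of all pairs between the groups, while not every library correlated best with its own number. Whether same-numbered libraries share more than a number cannot be told from these values. The fit with the replicate number as a block gave 1 gene called and log2 fold changes of −0.38 for *Nppa* and −0.49 for *Nppb*, and it changed no call. In the 5 libraries where *Nppc* had a count of 0, its level could be as high as 0.185 to 0.246 CPM.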
